A study of Caenorhabditis elegans with 36 samples.

Results

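The histone genes of *Caenorhabditis elegans* were taken as all genes of the WBcel235 annotation with a symbol of the form *his-* followed by a number. There were 72 of them among 19973 protein-coding genes on the 6 nuclear chromosomes. A gene was counted as bound when a listed ChIP-seq peak overlapped its 5′ end, or the 500 bp on either side of it, by at least 1 bp. The rule was applied to each of the 8 deposited peak lists. In the DVE-1 list under *hda-1* RNAi, 30 of the 72 histone genes were bound (41.7%), against 8 under control RNAi (11.1%). Over all protein-coding genes these shares were 29.9% and 19.9%, and the lists held 6962 and 4279 peaks. A mapping minimum described below was missed by 40 of the histone genes. Of the 72 genes, 67 lay in 15 clusters of 2 to 13 genes, in which neighbouring 5′ ends were 5 kb or less apart, and 5 stood alone.

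ChIP-seq was performed on chromatin of whole day 1 adults through a GFP tag, either on the histone deacetylase HDA-1 (transgene *hda-1p::hda-1::gfp*) or on the homeodomain protein DVE-1 (transgene *dve-1p::dve-1::gfp*). Both tagged proteins were expressed from transgenes under their own promoters, in addition to the endogenous genes, and all worms carried *glp-4(bn2)*, a temperature-sensitive mutation that reduces the germline, and were grown at 20°C. HDA-1 worms were fed control RNAi (the empty vector L4440) or *dve-1* RNAi, and DVE-1 worms control RNAi or *hda-1* RNAi. Each of these was also combined with RNAi of *atp-2*, a mitochondrial ATP synthase gene whose loss stresses the mitochondria. The 18 ChIP and 18 input libraries came as 2 of each per condition, except for HDA-1 after *dve-1* RNAi, where both conditions had 3. The labels of all libraries with *dve-1* or *hda-1* RNAi carry library or flow cell numbers that those of the control RNAi libraries lack, and the *dve-1* RNAi numbers form a series apart from those of *hda-1* RNAi. Whether control and partner RNAi libraries were made together is not given in the sources used here, so for both proteins the partner RNAi and the set of libraries cannot be told apart. Worms lacking a GFP-tagged protein were not among them. The study reported lower levels of tagged HDA-1 protein after *dve-1* RNAi, and of tagged DVE-1 protein after *hda-1* RNAi. How far this bears on the peak lists was not tested. Each condition had 1 list of peak positions with no score, signal or depth, so no spread between samples could be had and no test between conditions was run. The lists held between 4279 and 9862 peaks, with median widths between 710.5 and 1301 bp.

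Core histones H2A, H2B, H3 and H4 wrap DNA into nucleosomes, and the linker histone H1 binds where DNA enters and leaves them. Most worm histone genes are present in many near-identical copies without introns, arranged as divergent pairs that share the DNA between them, and their transcripts are made mainly while DNA is replicated. Replacement variants such as H3.3 come from separate genes, many of them with introns, that are used throughout the cell cycle. HDA-1 removes acetyl groups from histone tails, and DVE-1 takes part in the mitochondrial unfolded protein response.

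By the annotated products, 17 of the genes encode H2A, 16 H2B, 15 H3, 16 H4, 5 an H3.3-type variant and 1 (*his-24*) the linker histone H1, while *his-39* and *his-73* are short genes that cover only part of a histone. The genes were on chromosomes I (2 genes), II (14), III (3), IV (22), V (27) and X (4). In 65 genes the annotated 5′ end was the first base of the coding sequence, so the window was centred on the start codon there. The copies were so alike that the 1001 bp window of 34 genes matched that of another histone gene at 99% or more of its bases.

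This repetition bears on every count, because the authors kept only uniquely mapping, properly paired reads. To see how much of each window could be read, error-free 150 bp pairs were taken from the genome and mapped back with the same mapping quality of at least 20. At least 80% of the pairs were kept in 32 of the histone genes (44.4%), against 98.0% of all protein-coding genes. In 20 histone genes no pair was kept, and the highest share among the 40 genes below the minimum was 65.9%. All 34 genes with a window 99% alike to another were below it. A list cannot show a peak where no pair is kept, so at these genes an unbound promoter and discarded reads cannot be told apart. Of the 40 genes below the minimum, none was bound in an HDA-1 list, and in the DVE-1 lists the bound ones were *his-25* in 3 lists, with 44 to 79 bp of its window covered, and *his-55* in 1 list, with 17 bp.

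The DNA between divergent H4 and H3 genes shows how close a readable promoter and an unreadable one can be. The following sequences are the stretches between the start codons of 6 such pairs, without the 40 bases beside each codon, read from the H4 gene to the H3 gene, with each TATAAA and its reverse complement in capitals. They were read from the RefSeq genome of build WBcel235 at V:16042324-16042479 (minus strand), V:8535018-8535173 (minus), X:7309916-7310069 (plus), V:8847745-8847902 (plus), IV:11406902-11407075 (minus) and IV:11326370-11326547 (plus).
his-1/his-2: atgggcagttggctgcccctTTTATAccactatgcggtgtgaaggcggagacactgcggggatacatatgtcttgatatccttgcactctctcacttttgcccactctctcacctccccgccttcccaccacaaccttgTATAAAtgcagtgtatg
his-5/his-6: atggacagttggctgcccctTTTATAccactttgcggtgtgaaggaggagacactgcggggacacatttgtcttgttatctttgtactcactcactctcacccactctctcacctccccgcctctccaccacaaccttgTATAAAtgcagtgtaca
his-38/his-40: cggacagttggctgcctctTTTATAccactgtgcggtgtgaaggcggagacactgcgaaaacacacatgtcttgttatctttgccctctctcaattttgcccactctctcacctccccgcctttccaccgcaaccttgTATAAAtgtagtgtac
his-50/his-49: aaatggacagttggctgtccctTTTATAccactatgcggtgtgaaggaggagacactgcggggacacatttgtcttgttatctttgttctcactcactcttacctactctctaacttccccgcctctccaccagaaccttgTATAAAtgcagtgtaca
his-64/his-63: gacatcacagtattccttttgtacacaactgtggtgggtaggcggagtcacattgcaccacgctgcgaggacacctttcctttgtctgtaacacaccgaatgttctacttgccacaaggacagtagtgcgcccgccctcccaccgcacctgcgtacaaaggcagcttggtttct
his-46/his-45: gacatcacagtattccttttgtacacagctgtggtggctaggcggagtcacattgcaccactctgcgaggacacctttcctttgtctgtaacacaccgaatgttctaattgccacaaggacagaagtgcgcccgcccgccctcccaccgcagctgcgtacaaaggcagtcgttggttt

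The first 4 of these pairs each carried 2 such TATA words, facing the H4 and the H3 gene. The *his-50*/*his-49* stretch was 93.7% identical to that of *his-5*/*his-6* and 86.1% identical to that of *his-1*/*his-2*. The *his-5*/*his-6* window kept all simulated pairs and was bound in 4 lists, whereas *his-50* and *his-49* kept 0% of them and were bound in none. The *his-50*/*his-49* stretch was also 100% identical to that of *his-28*/*his-27*, which is not printed here. The last 2 pairs lacked the word and formed a second family, 92.1% identical to each other and 54.6% and 52.8% identical to *his-1*/*his-2*. Of these, *his-64* and *his-63* kept all pairs and were bound in both DVE-1 lists with *hda-1* RNAi. In *his-46* and *his-45*, 29.3% and 46.3% of pairs were kept, and no list bound them. Their stretch was 99.4% identical to that of *his-56*/*his-55*, also not printed.

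Under control RNAi, HDA-1 was listed at 12 of the 72 histone genes (16.7%), below the 31.8% of all protein-coding genes bound by the same rule. With *atp-2* RNAi 11 were bound (15.3%, against 31.3% of all genes), with *dve-1* RNAi 18 (25%, against 27.8%) and with *dve-1* and *atp-2* RNAi 16 (22.2%, against 31.8%). For DVE-1, 8 were bound under control RNAi (11.1%, against 19.9%) and 20 with *atp-2* RNAi (27.8%, against 31.2%). In the DVE-1 list with *hda-1* RNAi 30 were bound (41.7%, against 29.9%), as were 30 with *hda-1* and *atp-2* RNAi (41.7%, against 34.9%). Counted over all 72 genes, the histone group was therefore below the genome in 6 lists and above it in both DVE-1 lists with *hda-1* RNAi.

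Among the 32 histone genes past the mapping minimum the picture changed, since every HDA-1 call and nearly every DVE-1 call fell there. Of the 32, HDA-1 was listed at 12 (37.5%) under control RNAi and at 11 (34.4%) with *atp-2* RNAi, close to the 32.3% and 31.8% of protein-coding genes past the same minimum. With *dve-1* RNAi it was listed at 18 (56.2%, against 28.3%), and with *atp-2* RNAi as well at 16 (50%, against 32.4%). DVE-1 was listed at 8 (25%, against 20.2%) under control RNAi and at 19 (59.4%, against 31.8%) with *atp-2* RNAi. With *hda-1* RNAi DVE-1 was listed at 29 of the 32 (90.6%, against 30.4%), and with *hda-1* and *atp-2* RNAi at 28 (87.5%, against 35.4%). By class, HDA-1 under control RNAi was listed at 3 of the 5 H2A, 2 of the 4 H2B, 1 of the 7 H3 and 2 of the 8 H4 genes past the minimum. DVE-1 with *hda-1* RNAi was listed at every gene of these 4 classes past the minimum, and the 3 genes past it that it missed were *his-69*, *his-70* and *his-73*. These shares are counts of single lists, and genes of a divergent pair share a peak, so they carry no error estimate.

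**Figure D1:**
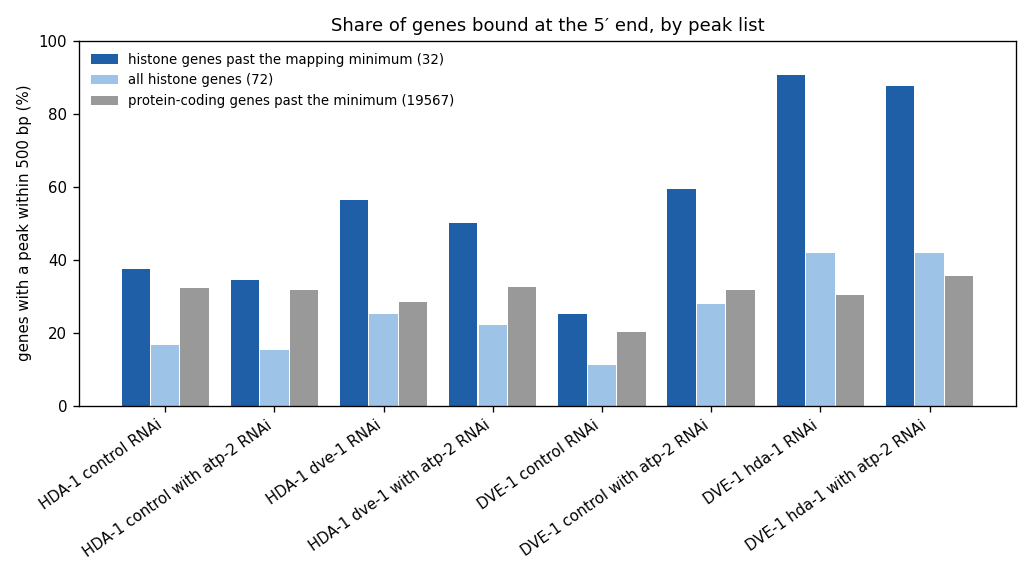
Share of genes (percent, vertical axis) with a peak within 500 bp of the 5′ end in each of the 8 lists, for the 32 histone genes past the mapping minimum (dark blue), all 72 histone genes (light blue) and the 19567 protein-coding genes past the minimum (grey). The dark blue bar reached 90.6% for DVE-1 with *hda-1* RNAi, where the grey bar was at 30.4%.

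The peaks behind these calls were few. The 12 genes of the HDA-1 control list lay in 8 peaks and the 8 genes of the DVE-1 control list in 5. The 30 genes of each *hda-1* RNAi list lay in 14 peaks, and in 15 where *atp-2* RNAi was added. When divergent genes whose 5′ ends lay within 500 bp were counted as 1 promoter, the 72 genes made 41 promoters, of which 6 to 19 were bound in a list. The median width of the peaks at histone genes was 1234 bp in the DVE-1 list with *hda-1* RNAi and 1466 bp in the DVE-1 control list, against 1162 and 1301 bp over all peaks of these lists.

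The histone genes were divided into 3 groups by the number of lists that bound them. In none of the lists were 41 bound, of which 38 were below the mapping minimum. In all 8 lists 8 were bound, which were *his-24*, *his-35*, *his-37*, *his-41*, *his-42*, *his-61*, *his-62* and *his-72*, and the remaining 23 genes were bound in 1 to 7 lists. Over all protein-coding genes, 53.5% were bound in none and 14.2% in all 8. The 41 and 8 of the 72 histone genes cannot be set beside these shares, since most of the 41 were below the minimum. Of the 32 histone genes past it, 3 were bound in none and 8 in all 8. The 7 genes with introns past the minimum (*his-24*, *his-35*, *his-37*, *his-41*, *his-71*, *his-72* and *his-74*) were all bound in 7 of the 8 lists, and 5 of them in the DVE-1 control list. Of the 25 without introns, HDA-1 was listed at 5 under control RNAi, 4 with *atp-2* RNAi, 11 with *dve-1* RNAi and 9 with both. DVE-1 was listed at 3 of the 25 under control RNAi, 12 with *atp-2* RNAi, 22 with *hda-1* RNAi and 21 with both. Of protein-coding genes past the minimum, between 20.2% (DVE-1 control) and 35.4% (DVE-1 with *hda-1* and *atp-2* RNAi) were bound in a list. This division by introns was made after the values had been seen, and is given as a description.

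**Figure D2:**
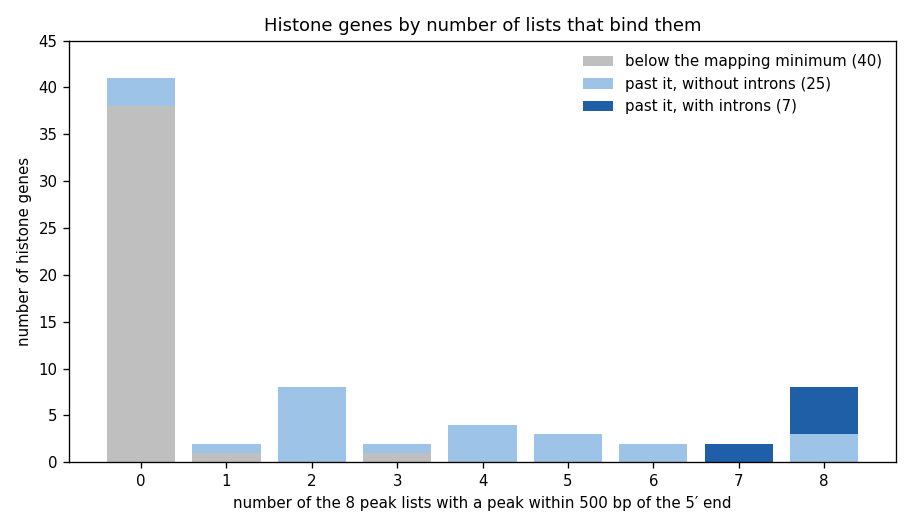
Number of histone genes (vertical axis) by how many of the 8 lists bound them (horizontal axis), for genes below the mapping minimum (grey), past it without introns (light blue) and past it with introns (dark blue). Of the 41 genes at 0, 38 are grey, and the 7 dark blue genes sit at 7 or 8 lists.

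The genes bound everywhere were of 2 kinds. *his-72*, which encodes an H3.3 variant (III:12367475-12369050, minus strand), had its whole window in a peak in every list, and that peak was between 3081 and 3508 bp wide. In every list the *his-72* peak also held the 5′ end of *Y75B8A.33*, of *rpt-6* or of both. The cluster of *his-35* (H2A), *his-41* (H2B) and *his-37* (H4) at V:9544659-9547607 was likewise wholly covered in all 8 lists by a peak shared by the 3 genes. That peak was 3620 to 3950 bp wide in 6 lists and 6965 and 7032 bp in the HDA-1 control lists without and with *atp-2* RNAi. It also held the 5′ end of *C50F4.6* in all 8 lists. In the HDA-1 control lists without and with *atp-2* RNAi it held the 5′ ends of 4 other protein-coding genes, *C50F4.6* among them. In the other kind, which also held *his-24*, peaks covered part of the window. At *his-61* (H2A) and *his-62* (H2B), a divergent pair on chromosome IV, HDA-1 peaks of 422 to 615 bp held both 5′ ends. The DVE-1 control peak there was 439 bp wide, and in the other DVE-1 lists the peak was 3125 to 3389 bp wide. At *his-42* (H3), at the end of the chromosome II cluster, 129 to 773 bp of the window were covered. Its 5′ end itself lay in a peak in 1 list, that of HDA-1 with *dve-1* RNAi.

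*his-24*, the gene of the linker histone H1 (X:14490094-14491119, plus strand), had 825, 815, 741 and 727 bp of its window covered in the HDA-1 lists under control, control with *atp-2*, *dve-1* and *dve-1* with *atp-2* RNAi. In the DVE-1 lists the values were 536 bp under control RNAi, 814 bp with *atp-2* RNAi, 765 bp with *hda-1* RNAi and 801 bp with both. The DVE-1 control list was thus the lowest of the 8, and its peak was 536 bp wide against 1632 to 1796 bp in the others. Of the replacement H3 genes, *his-71* (X:7981382-7982070, minus strand) had 570, 592, 1001 and 1001 bp covered in the 4 HDA-1 lists in the same order. In DVE-1 it had 0 bp under control RNAi and 649, 595 and 642 bp in the other lists. It was thus absent from the DVE-1 control list alone.

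*his-74*, a further H3.3-type gene (V:12659704-12660330, minus strand), was at the edge of the rule throughout. Its window held 136, 44, 410 and 88 bp of peak in the HDA-1 lists and 0, 164, 76 and 79 bp in the DVE-1 lists. The peak lay over the start of *ccch-3*, whose 5′ end it contained in every list where *his-74* was bound, and in the DVE-1 control list the nearest peak ended 18 bp outside the *his-74* window. The 5′ end of *his-74* was in a peak in none of the 8 lists. The H3.3-type genes *his-69* and *his-70* (III:4058360-4060119, minus strand), which lack introns and kept all simulated pairs, were bound in none. The nearest peak outside their windows was between 3074 and 19391 bp away. The partial gene *his-73* was not bound either, with the nearest peaks 327 and 361 bp outside its window in the HDA-1 lists with *dve-1* RNAi.

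The 5 genes outside clusters were *his-24*, *his-71*, *his-72*, *his-73* and *his-74*. Of these, 4 (80%) were bound in every list except the DVE-1 control list, where 2 (40%) were. Of the 67 clustered genes, between 8.96% (6 genes, DVE-1 control) and 38.8% (26 genes, each DVE-1 list with *hda-1* RNAi) were bound. The clustered share was thus 31 to 69.6 percentage points below the single share. All 5 single genes kept every pair, while 40 of the clustered genes were below the mapping minimum. Among the 27 clustered genes past it, HDA-1 was listed at 29.6%, 25.9%, 51.9% and 44.4%, and DVE-1 at 22.2%, 55.6%, 92.6% and 88.9%, in the order control, control with *atp-2*, partner, and partner with *atp-2* RNAi, where the partner is the other of the 2 proteins. The order of clustered and single genes was reversed in both DVE-1 lists with *hda-1* RNAi, where 80% of the single genes were bound. With 5 single genes, this reversal rested on the partial gene *his-73*, the single gene not bound there. *his-74* was counted there through 76 and 79 bp of its window.

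**Figure D3:**
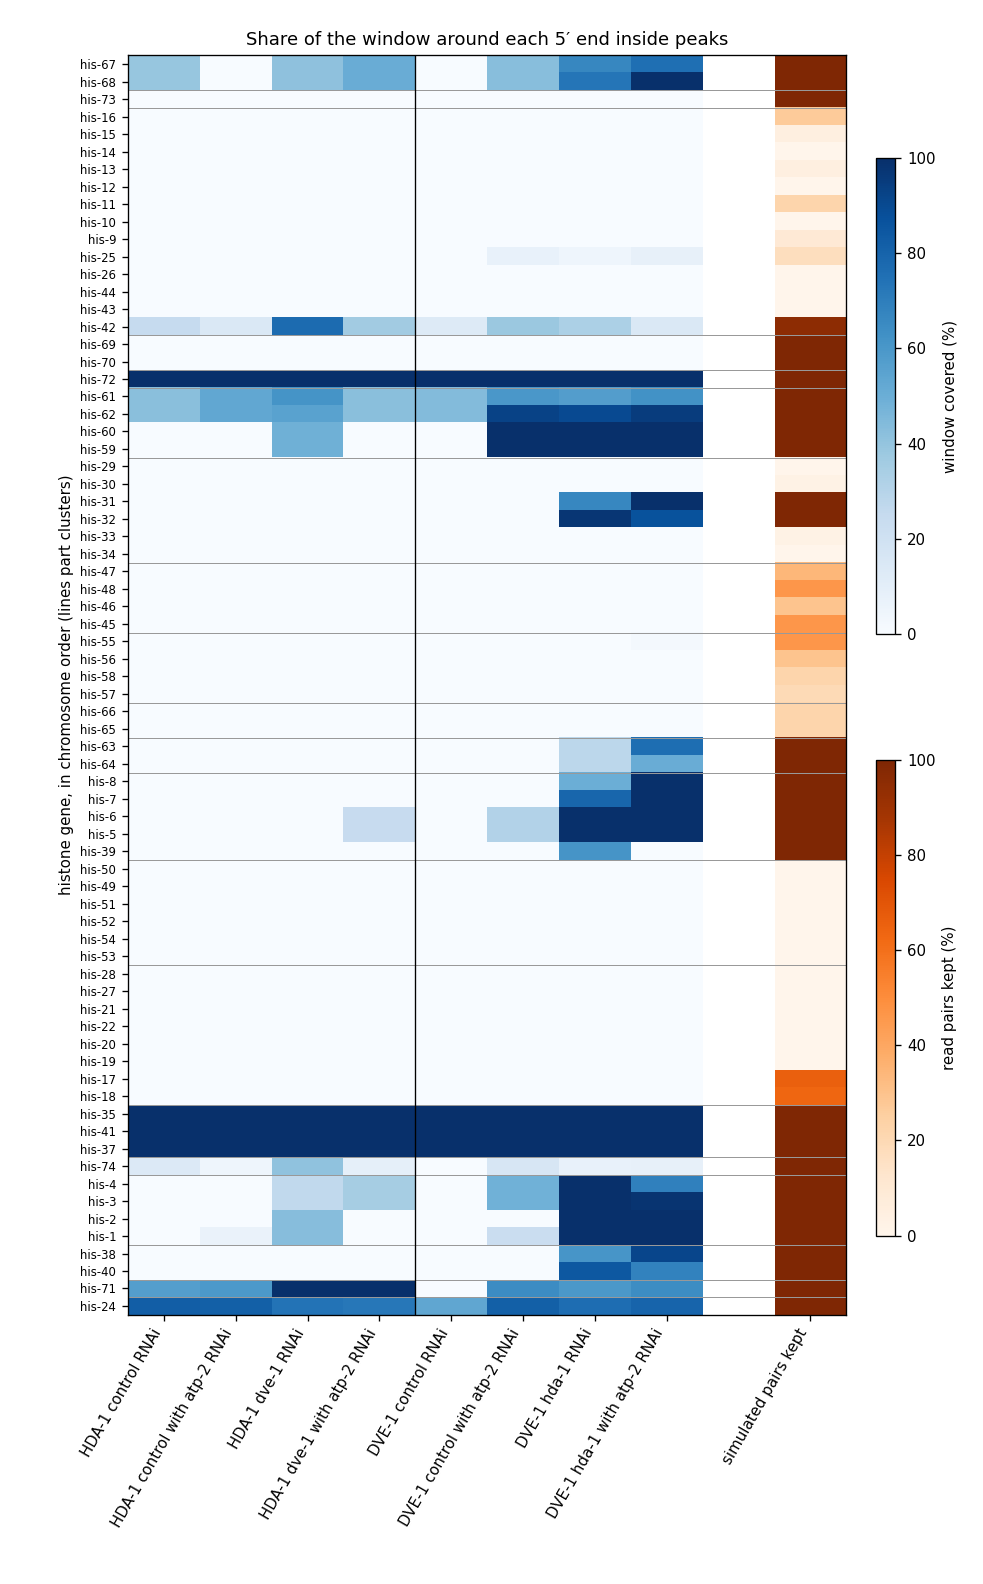
Share of the 1001 bp around the 5′ end that lies in peaks (percent, blue) for each of the 72 histone genes (rows, in chromosome order, lines part the clusters) in each of the 8 lists (columns), with the share of simulated read pairs kept (percent, orange) at the right. The rows of *his-72* and of *his-35*, *his-41* and *his-37* are dark throughout, while rows with pale orange are almost all blank in blue.

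When *atp-2* RNAi was added to control RNAi, the DVE-1 list gained 12 histone genes and lost 0. Over all protein-coding genes 12.2% were gained and 0.806% lost. The gained share of histone genes was 16.7% of the 72, but 40 of these were below the mapping minimum. Of all protein-coding genes, 98.0% were past it, so the 2 shares are not alike in the genes that could be read. The 12 were *his-1*, *his-3*, *his-4*, *his-5*, *his-6*, *his-25*, *his-59*, *his-60*, *his-67*, *his-68*, *his-71* and *his-74*. Of these, 11 were among the 32 histone genes past the mapping minimum. At the H4 gene *his-60* and the H3 gene *his-59*, the window went from 0 to 1001 bp covered, as the *his-61*/*his-62* peak of 439 bp under control RNAi was replaced by a peak of 3125 bp over all 4 genes of the cluster. At *his-5* and *his-6* a peak of 312 bp appeared between the pair, and at *his-67* and *his-68* a peak of 426 bp. At *his-1* the 229 bp covered came from a 3573 bp peak that began near the end of the gene and ran away from its start, and it missed the window of *his-2*, the H3 gene on the other side of the shared promoter, by 9 bp.

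With *hda-1* RNAi in place of control RNAi, DVE-1 was gained at 22 histone genes (30.6%) and lost at 0, against 11.5% gained and 1.58% lost over all protein-coding genes. Of the 22, 21 were among the 32 histone genes past the mapping minimum. These 22 comprised every gene gained with *atp-2* RNAi and a further 10, which were *his-2*, *his-7*, *his-8*, *his-31*, *his-32*, *his-38*, *his-39*, *his-40*, *his-63* and *his-64*. The *hda-1* RNAi and control libraries also differ in their library set, and the study reported less tagged DVE-1 protein after this RNAi, as above. The *atp-2* and *hda-1* RNAi lists are set against the same DVE-1 control list, so the shared genes are not independent of each other. Among genes gained in both lists, the covered length was larger with *hda-1* RNAi at *his-1*, *his-3* to *his-6*, *his-67* and *his-68*. It was equal at *his-59* and *his-60* and smaller at *his-25* (44 against 74 bp), *his-71* (595 against 649 bp) and *his-74* (76 against 164 bp). All 4 windows of the *his-1* to *his-4* cluster, which holds each core histone once, had 0 bp covered under control RNAi and 1001 bp with *hda-1* RNAi, from a peak of 6583 bp that also held the 5′ end of *T10C6.15*. A peak of 3537 bp covered 1001 bp at *his-5* and *his-6*, 792 bp at *his-7*, 499 bp at *his-8* and 612 bp at the partial gene *his-39*. At *his-31* and *his-32*, an H4 and H3 pair of chromosome IV, 667 and 975 bp were covered. The flanking genes of that cluster, *his-29*, *his-30*, *his-33* and *his-34*, were bound in no list, and 0% to 2.44% of their pairs were kept. At *his-38* and *his-40* (chromosome X), 610 and 845 bp were covered, and at *his-63* and *his-64* 279 bp each.

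**Figure D4:**
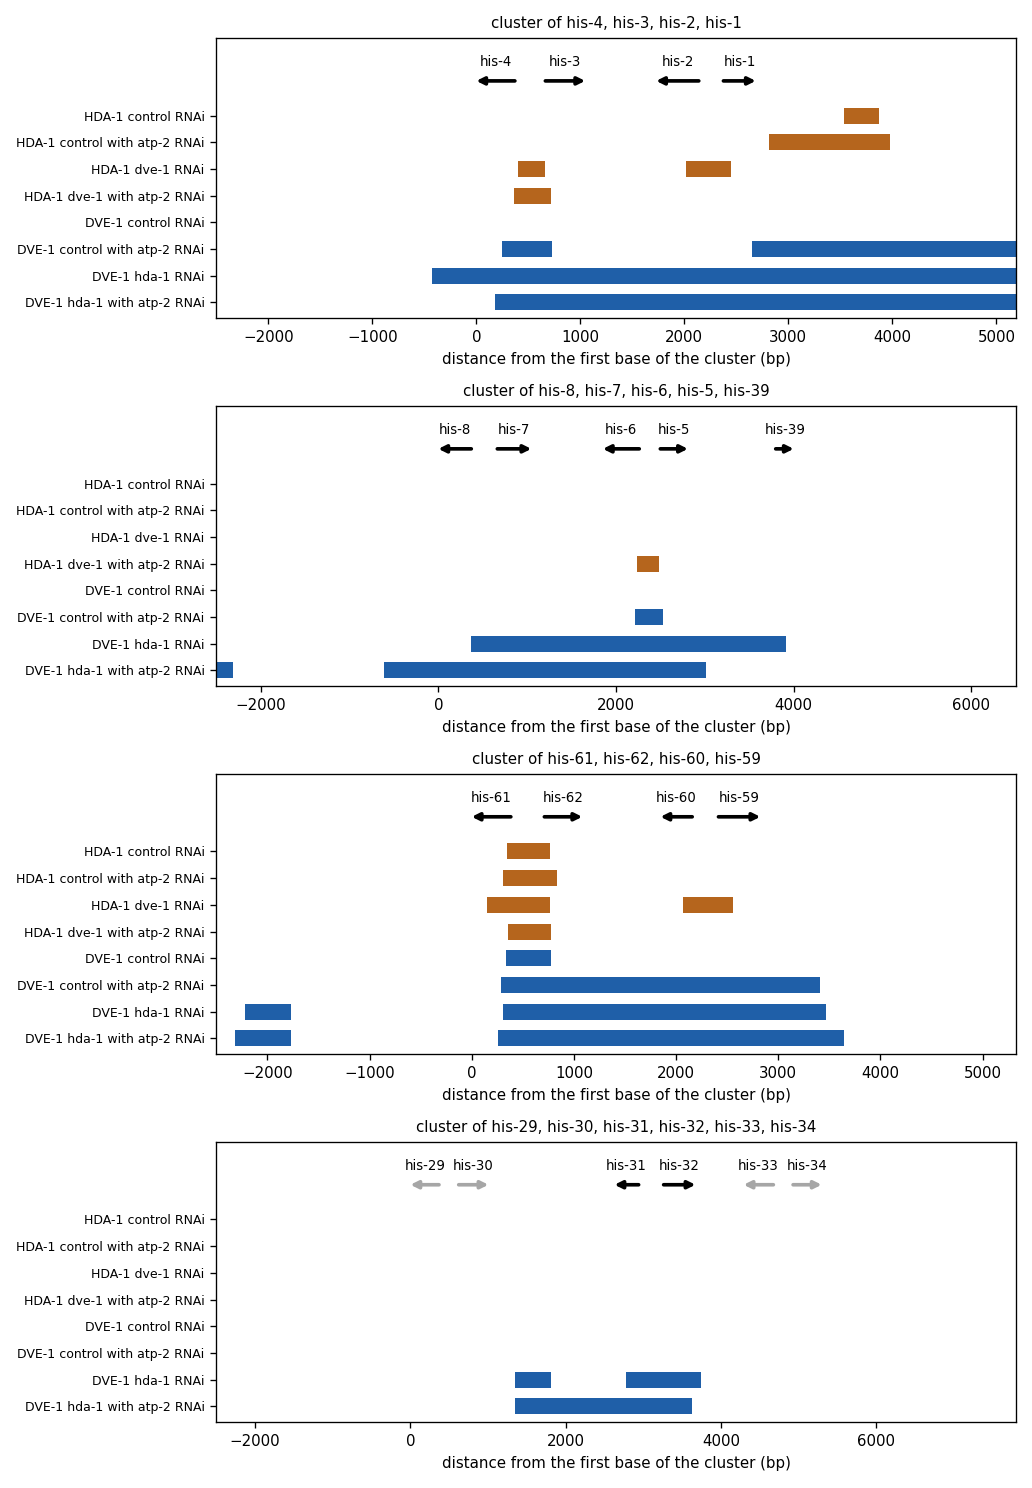
Peaks of HDA-1 (brown) and DVE-1 (blue) in the 8 lists over 4 histone clusters, against the distance in bp from the first base of each cluster, with genes as arrows in the direction of transcription (black, past the mapping minimum, and grey, below it). Under *hda-1* RNAi the DVE-1 peak over *his-1* to *his-4* was 6583 bp wide, where the DVE-1 control list had none.

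Adding *atp-2* RNAi to *hda-1* RNAi changed the DVE-1 calls at histone genes little. The gene gained was *his-55* (1.39% of the histone genes, against 6.39% of all genes), by 17 bp and below the mapping minimum. Before *atp-2* RNAi was added, 29 of the 32 histone genes past the minimum were already bound. Few readable histone genes were thus left to be gained, and the gained shares cannot be compared as responses. The gene lost was *his-39*, against 1.39% of all genes lost. The covered length nevertheless moved, from 499 to 1001 bp at *his-8*, from 279 to 760 bp at *his-63* and from 1001 to 690 bp at *his-4*. With *atp-2* RNAi on both sides, DVE-1 was gained by *hda-1* RNAi at 10 histone genes (13.9%) and lost at 0, against 6.70% gained and 3.10% lost over all genes. The 10 were *his-2*, *his-7*, *his-8*, *his-31*, *his-32*, *his-38*, *his-40*, *his-55*, *his-63* and *his-64*. Of these, 9 were among the 32 past the mapping minimum. The DVE-1 lists held 4279, 6484, 6962 and 8221 peaks under control, control with *atp-2*, *hda-1* and *hda-1* with *atp-2* RNAi. The histone counts rose with the length of the list as far as *hda-1* RNAi, and the part of list length in them was not tested. With each list held to its 4279 widest peaks, the DVE-1 counts were 8, 13, 24 and 25.

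HDA-1 changed at fewer histone genes when *atp-2* RNAi was added to control RNAi. The gene gained was *his-1*, with 63 bp covered (2.72% of all protein-coding genes were gained), and those lost were *his-67* and *his-68* (3.22% of all genes lost). *his-67* and *his-68* are a divergent H4 and H2A pair on chromosome I whose peak was 393 bp wide under control RNAi, and with *atp-2* RNAi the nearest peak was 2994 bp from the *his-67* window and 3363 bp from that of *his-68*. The *his-1* call rested on a peak of 1169 bp that began beyond the end of the gene, where the control list had a shorter peak outside the window.

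With *dve-1* RNAi in place of control RNAi, HDA-1 was gained at *his-1*, *his-2*, *his-3*, *his-4*, *his-59* and *his-60* and lost at 0 histone genes. Over all protein-coding genes 3.28% were gained and 7.23% lost, so the 6 gained histone genes (8.33%) stood beside a genome in which losses outnumbered gains. All 6 were among the 32 histone genes past the mapping minimum. The gained peaks were narrow and lay over the promoter that a divergent pair shares. They were 264 bp wide between *his-3* (H2A) and *his-4* (H2B), 430 bp at *his-1* and *his-2*, and 489 bp at *his-59* and *his-60*. When *atp-2* RNAi was added to *dve-1* RNAi, *his-5* and *his-6* were gained through a peak of 245 bp (5.39% of all genes gained). *his-1*, *his-2*, *his-59* and *his-60* were lost (5.56%, against 1.38% of all genes lost). With *atp-2* RNAi on both sides, *dve-1* RNAi gained *his-3*, *his-4*, *his-5*, *his-6*, *his-67* and *his-68* and lost *his-1* (5.79% of all genes gained and 5.22% lost). Both *dve-1* RNAi conditions had 3 ChIP libraries instead of 2, and their lists had more and narrower peaks (8512 and 9862 peaks with medians of 733.0 and 710.5 bp) than both HDA-1 control lists (6794 and 6634 peaks with medians of 1165 and 1067 bp). As above, the RNAi and the set of libraries cannot be told apart, and the study reported less tagged HDA-1 protein after *dve-1* RNAi. Among peaks of 500 bp or wider, the counts with *dve-1* RNAi were 10 alone and 10 together with *atp-2* RNAi, against 8 and 11 in both HDA-1 control lists. With each list held to its 4279 widest peaks, they were 8 and 7, against 7 and 8. Without the narrower peaks the gain of 6 genes with *dve-1* RNAi was thus 2 and 1, and with *atp-2* RNAi on both sides the change was -1 under each setting, against 5 over all peaks.

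Few calls lay near the 1 bp threshold, but a stricter rule changed the counts more. With 50% of the window required, HDA-1 under control RNAi went from 12 to 6 genes and DVE-1 with *atp-2* RNAi from 20 to 10. DVE-1 with *hda-1* RNAi went from 30 to 24. The calls closest to the 1 bp threshold on the inner side were *his-55* (17 bp), *his-25* and *his-74* (44 bp each) and *his-1* in the HDA-1 list with *atp-2* RNAi (63 bp). On the outer side, the nearest were *his-2* (9 bp, DVE-1 with *atp-2* RNAi), *his-9* (14 bp, DVE-1 with *hda-1* and *atp-2* RNAi) and *his-74* (18 bp, DVE-1 control).

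Under control RNAi, the 8 histone genes of the DVE-1 list were all among the 12 of the HDA-1 list, which is 66.7% of the HDA-1 genes. The remaining 4 of HDA-1 were *his-67*, *his-68*, *his-71* and *his-74*. Over all protein-coding genes, 92.5% of the DVE-1 genes and 57.9% of the HDA-1 genes were bound by the other protein. With *atp-2* RNAi the order was turned, as all 11 HDA-1 genes were among the 20 DVE-1 genes, or 55.0% of them, against 85.2% of the HDA-1 and 85.3% of the DVE-1 genes over all protein-coding genes. The same held when each protein's list with RNAi of its partner was set side by side, where the 18 HDA-1 genes made up 60% of the 30 DVE-1 genes, and 53.3% (16 genes) with *atp-2* RNAi added. Over all protein-coding genes, 71.6% of the HDA-1 and 66.7% of the DVE-1 genes were shared there, and 76.9% and 70.2% with *atp-2* RNAi added.

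Of 25 measured genes with related functions and no *his-* symbol, HDA-1 was listed at 16, 15, 16 and 17 and DVE-1 at 9, 15, 15 and 15. The order of conditions is that used above, and all 25 kept every simulated pair. Of protein-coding genes past the mapping minimum, 32.3%, 31.8%, 28.3% and 32.4% were bound by HDA-1 in the same order. For DVE-1 these shares were 20.2%, 31.8%, 30.4% and 35.4%. *htz-1*, which encodes the variant H2A.Z, was wholly covered in 7 lists and at 1000 bp in the last. *nap-1*, a histone chaperone, was wholly covered in all 8. *lin-53*, which encodes a histone-binding protein found in deacetylase complexes, had 954 to 1001 bp covered. *cdl-1*, whose product binds the stem-loop at the end of replication-dependent histone transcripts, was bound in every list except the DVE-1 control list. Its covered length was 472 to 660 bp. *hcp-3*, the centromeric H3 gene, was bound in all lists except that of DVE-1 with *hda-1* and *atp-2* RNAi.

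Among the linker histone genes of the *hil-* family, which encode further H1 proteins, *hil-3* was bound in all 8 lists with 681 to 830 bp covered. *hil-4*, *hil-6* and *hil-8* were bound in none, and *hil-1* was bound in the HDA-1 control list with 811 bp. *hil-5* was bound in both DVE-1 lists with *hda-1* RNAi, with 1001 and 410 bp covered. *hil-2* had 637 and 636 bp in the HDA-1 lists with *dve-1* RNAi and 0 bp in both HDA-1 control lists. In DVE-1 it had 0 bp under control RNAi and 410 to 474 bp in the other lists. *hil-7* was bound in all HDA-1 lists, with 417 to 494 bp, and in DVE-1 with *hda-1* and *atp-2* RNAi with 443 bp.

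Of the chaperone genes, *chaf-2*, for a subunit of chromatin assembly factor, and *spt-16*, for a subunit of the FACT complex, were bound in all lists but the DVE-1 control list. *hira-1*, whose human counterpart deposits H3.3, was missing from the HDA-1 list with *dve-1* RNAi and from 2 DVE-1 lists, those of control RNAi and of combined *hda-1* and *atp-2* RNAi. *hmg-4*, also of FACT, was bound in all HDA-1 lists. Among the DVE-1 lists it was bound in that of control combined with *atp-2* RNAi alone, with 273 bp. *rba-1*, related to *lin-53*, was bound in both HDA-1 lists with *dve-1* RNAi, with 107 and 86 bp, and in DVE-1 with *hda-1* and *atp-2* RNAi with 662 bp. *unc-85*, *chaf-1*, *xnp-1* and *emb-5* were bound in all 8 lists, and *asfl-1*, *hmg-3* and *cpar-1* in none. No related gene was bound in the DVE-1 control list and absent from the DVE-1 list with *atp-2* RNAi. Over all protein-coding genes 0.806% were lost in this way, so no loss among so few genes is what the genome would give.

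Short sequence words were counted on both strands of the 250 bases before and 50 after each 5′ end, and none of the words contains another. TATAAA was found in 47 of the 72 histone promoters (65.3%), against 37.9% of the promoters of all protein-coding genes. It was present in 20 of the 32 promoters past the mapping minimum. CTTATCA was found in 0 of the 72 (9.19% of all promoters), CTGCGTCTC in *his-67* and *his-68* (2.78%, against 2.93%), and TTACGAAA or TTGCGAAA in *his-69* (1.39%, against 5.33%). The 72 promoters held 51 distinct sequences, so these counts are not of independent promoters.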

How the data were processed

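Binding of GFP-tagged HDA-1 and DVE-1 was analysed through the 8 deposited peak lists, 1 per condition. The authors trimmed the reads, mapped 150 bp pairs to ce11 with BWA 0.7.13-r1126, kept uniquely mapping proper pairs with a mapping quality of at least 20, removed duplicates with Picard 2.17.6 and called broad peaks with MACS2 2.1.1, per the study's methods and the submitters' processing notes. How replicates were combined into a list is not given in the sources used here. The values deposited by the authors are the start and end of each peak, with no count, signal or score, so depth per sample is unknown and shares carry no error.

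Genes came from Ensembl release 115 of WBcel235, the same assembly as ce11. Ensembl gave the 72 genes 50 distinct symbols, since 36 genes share one, so distinct symbols were taken from RefSeq by gene identifier, and all 72 matched. Overlaps were computed in Python 3.11.15, tested on simulated data and checked against bedtools 2.31.1. For the mapping share, error-free 150 bp pairs from 300 bp fragments every 25 bp of each window were mapped with bwa 0.7.19, and 80% of pairs kept at their own place was the minimum. Fragments of 200 and 500 bp left the same 32 genes past it. Plots used matplotlib 3.10.9. In the list of related genes, *rcaf-1* had no match in the annotation.

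Samples were grouped by the labels. Named genes were all single genes, every cluster, and genes that were bound in none or all lists or differed between lists by 1 RNAi. The members, the gene lists and the sequence words were chosen with earlier results of these data known. Alternatives changed the window (250 or 1000 bp, or the 5′ end itself), the cover required (50%), the peak width (500 bp), the length of lists, the genes counted, promoters counted as units, and the distance that chains a cluster (2 or 20 kb).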

Additional observations from a re-analysis of the deposited data

Results flagged for a closer look

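When *atp-2* RNAi was added to control RNAi, the number of histone genes bound by HDA-1 changed by -1, from 12 to 11, and the number bound by DVE-1 changed by 12, from 8 to 20. What drew attention was that the 2 counts moved in opposite directions under the same RNAi. Over all protein-coding genes the share bound went from 31.8% to 31.3% for HDA-1 and from 19.9% to 31.2% for DVE-1. The directions were thus those of the whole genome and not particular to histone genes. Each value compares 1 list with another, so the difference was not tested. The change for HDA-1 was between -2 and 3 under the other settings and that for DVE-1 between 5 and 17, so the sign for HDA-1 was not stable while DVE-1 gained genes in each.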

How the results depend on the processing

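In 51 of 64 recounts of bound histone genes, the value stayed within 1.5 times that over all 72 genes. With at least 50% of the window covered, HDA-1 was listed at 6 genes under control RNAi, 9 with *dve-1* RNAi and 8 with *dve-1* and *atp-2* RNAi, and DVE-1 at 5 under control RNAi and 10 with *atp-2* RNAi. With peaks of 500 bp or wider, HDA-1 was listed at 10 with *dve-1* RNAi and at 10 with *dve-1* and *atp-2* RNAi. With each list held to its 4279 widest peaks, HDA-1 was listed at 7 under control RNAi, 8 with *dve-1* RNAi and 7 with *dve-1* and *atp-2* RNAi, and DVE-1 at 13 with *atp-2* RNAi. Counted as promoters, DVE-1 was listed at 19 of 41 in each list with *hda-1* RNAi, and fewer items can be counted there by construction.

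The share of clustered minus single genes bound was negative in every list, at -69.6 to -31 points. With a window of 1000 bp it was -79.1 points for HDA-1 with *dve-1* RNAi and -82.1 with *dve-1* and *atp-2* RNAi. Among genes past the mapping minimum it was 12.6 points for DVE-1 with *hda-1* RNAi and 8.89 with *hda-1* and *atp-2* RNAi. The order of clustered and single genes thus depended on which genes could be read. Both positive values also rested on the partial gene *his-73* being unbound among the 5 single genes. The cause of the other shifts was not tested. Chaining clusters at 2 or 20 kb changed no value. The lists give neither depth nor signal, so weak binding below the authors' threshold was not seen. Leaving out a replicate was not run, since each list joins the samples of its condition. No paired analysis was possible because each condition has 1 list and the columns carry no replicate.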
